A study of Mus musculus with 17 samples.

Results

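The genotype by stimulation interaction asks whether CD8+ T cells without the ubiquitin ligase Cbl-b change their RNA by a different amount than wild-type cells when the T cell receptor is stimulated with anti-CD3 alone. For each gene it is the anti-CD3 response of Cblb knockout (KO) cells minus that of wild-type (WT) cells, in log2 units, so that a positive value means a higher stimulated level relative to the unstimulated level in KO cells than in WT cells. It was measured in 12 of the 17 libraries of the series. In KO cells the response was larger for effector cytokine and chemokine genes (Ifng, Lta and Ccl4) and for early receptor-induced genes (Nr4a3). Ccl3 had a larger response as well, but lost its significance after a correction for the GC content of the genes. Of 22 IL-2 and Stat5 target genes 6 had a higher interaction, among them Cdk6, Cish and Il2ra, and 2 a lower one. The response was also larger for 11 of 20 heat shock proteins and chaperones. Of all tested genes 1.76% had a higher and 1.21% a lower interaction. The response was smaller for 14 of 35 genes of the interferon-gamma response, among them Irf1 and Psmb9, although Ifng itself had the larger response. Of these 14, 12 were above WT before stimulation (19.0% of all tested genes were). After anti-CD3, 5 were below WT (8.62% of all) and 1 was above it (12.9% of all). Leaving out 1 library gave 1 to 23 genes of this list with a lower interaction. Across the genome 282 genes had a higher and 193 a lower interaction, and 524 and 444 after a correction for the GC content of the genes.

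Cbl-b is an E3 ubiquitin ligase that dampens signalling from the T cell receptor and ties full activation to the costimulatory receptor CD28. Mice without it have T cells that respond to the antigen receptor without CD28, and anti-CD3 given alone is the classical test of that property. A stimulated CD8+ T cell induces first the immediate early transcription factors of the Nr4a, Egr and AP-1 families, then cytokines, chemokines and the high-affinity IL-2 receptor. IL-2 acts through the transcription factor Stat5, while the secreted interferon-gamma acts back on the cells through its receptor and, in part through the GAS element of promoters, induces Irf1, the interferon-induced GTPases and the genes of MHC class I peptide loading.

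All cells were C57BL/6 mouse CD8+ T cells, stated to be over 99% CD8+. The 4 groups used were KO cells stimulated with anti-CD3 for 12 hours, KO cells not stimulated, WT cells stimulated with anti-CD3 for 12 hours and WT cells not stimulated, with 3 libraries each; the 5 remaining libraries, which received anti-CD28 as well, enter only where they are named. The labels give no dose, no age or sex of the mice, no time in culture for the unstimulated cells and no source of the replicates, so that p-values measure only how far these libraries scatter, which may be technical. They do not say how Cblb was deleted or in which cells. Total RNA was depleted of ribosomal RNA and sequenced as stranded pairs.

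The libraries held 16635826 to 38269033 counts, except unstimulated KO replicate 2 with 160059285. Cblb (ENSMUSG00000022637, chr16:52031225-52208048, plus strand) had 76.97, 77.8 and 81.7 CPM (counts scaled by library size) in anti-CD3 KO cells and 67.1, 68.96 and 63.7 CPM in unstimulated KO cells, against 191, 182 and 193 CPM in anti-CD3 WT cells and 162, 139 and 148 CPM in unstimulated WT cells. All 6 KO libraries lay below all 6 WT libraries, with Cblb RNA still present, and the interaction was -0.09 ± 0.11 (SE, adjusted p = 0.679) and -0.20 with the GC correction (adjusted p = 0.26). The genes Cd8a, Cd8b1, Cd3e and the other CD8 T cell markers summed to 1602 to 1689 CPM in anti-CD3 KO cells, 2945 to 3223 CPM in unstimulated KO cells, 1779 to 1795 CPM in anti-CD3 WT cells and 2820 to 2950 CPM in unstimulated WT cells. Of 22 markers of other cell types, 12 had enough counts to be tested, and they summed to 16.4 to 18.6, 39.3 to 46.4, 17.1 to 19.7 and 31.8 to 36.9 CPM in those 4 groups in the same order. Over the 12 libraries Cd4 had 25 counts in all, Ncr1 of natural killer cells 16, Adgre1 of macrophages 19 and the platelet genes Pf4 and Ppbp none. The other markers with too few counts to be tested were Alas2 with 132, Lyz2 with 111, Hba-a1 with 101, Flt3 with 48 and Siglech with 8. In bulk RNA, fewer cells of a type and less RNA per cell cannot be told apart. The libraries did differ in how counts followed base composition: the median log2 deviation from the mean of the 12 libraries was taken for protein-coding genes with 56% GC or more and compared with that for genes with 40% or less. The difference (high minus low GC) was 0.219, 0.108 and 0.265 in anti-CD3 KO cells and 0.520, 1.16 and 0.182 in unstimulated KO cells, against -0.127, -0.418 and -0.431 in anti-CD3 WT cells and -0.780, -0.342 and -0.323 in unstimulated WT cells. The tilt was thus positive in all 6 KO libraries and negative in all 6 WT libraries, and widest apart between the unstimulated cells, which is why the counts of called genes, and the values of the genes described in full, are given without and with a GC correction.

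The 2 groups of genes that stood out by their counts, the interferon-gamma response and the chaperones, have well known promoter elements, and the following stretches show them in genes whose interaction is described later. They come from the RefSeq promoter windows of GRCm38.p6 and are read along the gene's own strand, 5′ to 3′. Capitals mark the element. The GAS element, the gamma-activated sequence of interferon-gamma response genes, was searched as TTCNNNGAA, the interferon-stimulated response element (ISRE), bound by Irf factors, as GAAANNGAAA, and the heat shock element (HSE), bound by Hsf1, as GAANNTTCNNGAA, each on both strands of the 250 bases before the gene's start; in some stretches a GAS and an ISRE adjoin.
Irf1 GAS, chr11:53769904-53769952, plus strand: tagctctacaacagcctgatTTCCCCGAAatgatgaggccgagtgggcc
Igtp GAS, chr11:58199491-58199539, plus strand: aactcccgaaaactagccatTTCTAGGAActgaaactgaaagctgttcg
Igtp ISRE, chr11:58199502-58199551, plus strand: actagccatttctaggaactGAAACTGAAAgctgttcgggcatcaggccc
Gbp3 ISRE, chr3:142559979-142560028, plus strand: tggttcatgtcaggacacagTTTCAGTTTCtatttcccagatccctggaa
Gbp7 GAS, chr3:142530210-142530258, plus strand: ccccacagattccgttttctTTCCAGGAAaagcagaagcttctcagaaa
Irgm1 ISRE, chr11:48871421-48871470, minus strand: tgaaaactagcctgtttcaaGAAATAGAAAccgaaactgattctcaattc
Hspd1 HSE, chr1:55088039-55088091, minus strand: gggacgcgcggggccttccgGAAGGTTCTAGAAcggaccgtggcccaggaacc
Hspe1 HSE, chr1:55088039-55088091, plus strand: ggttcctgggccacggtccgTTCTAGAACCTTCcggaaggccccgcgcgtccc
Hspd1 and Hspe1, the mitochondrial chaperonin and its lid, are neighbours that point away from each other, and their 2 lines are the same stretch read from the opposite strands. Of the 25 interferon-gamma response genes with a window, 9 held a GAS and 11 an ISRE, against 7.19% and 3.22% of the 10001 tested genes with a window. Among all genes with a lower interaction, 11.9% held a GAS and 9.09% an ISRE, and among those with a higher interaction 6.28% and 4.48%; with the GC correction described later these were 9.76% and 11.8% of the lower and 6.25% and 2.64% of the higher genes. The HSE was present in 2 of 16 chaperone windows, the shared one above, against 0.45% of all. These are matches of letters, not measured binding sites.

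Of 15993 genes with enough counts, 475 (2.97%) had an interaction at an adjusted p under 0.05 (edgeR's quasi-likelihood F test with Benjamini-Hochberg adjustment over all tested genes, which gives every adjusted p here unless another tool is named). These are called genes in what follows. The interaction was higher in 282 (1.76%) and lower in 193 (1.21%), and it passed 2-fold in 53 and 21 of them. The median over all genes was -0.01. Within each genotype the anti-CD3 response itself was called for 41.6% of genes in KO cells (19.5% rose, 22.0% fell) and 28.4% in WT cells (13.6% rose, 14.9% fell). With the GC correction these were 45.0% (20.9% and 24.1%) and 35.5% (17.5% and 18.0%). With the GC correction 968 genes were called (6.05%), 524 higher (3.28%) and 444 lower (2.78%), with a median over all genes of -0.03. In all, 370 genes were called in the same direction both ways, 233 higher and 137 lower, which is 77.9% of the uncorrected and 38.2% of the corrected calls, and none was called in opposite directions.

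**Figure D1:**
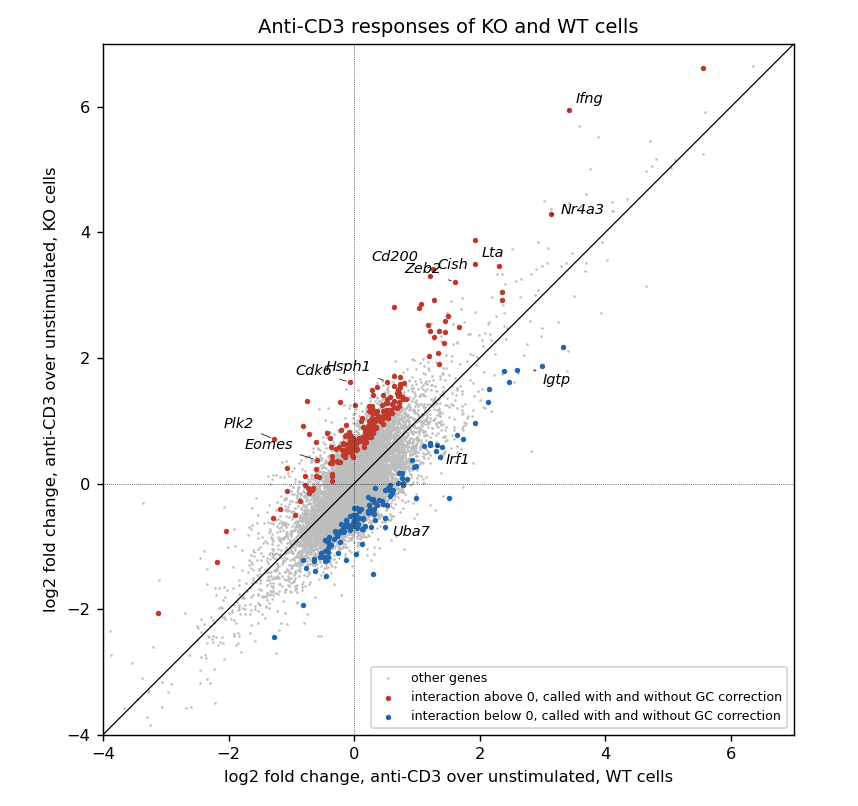
Anti-CD3 response of KO cells (y axis) against that of WT cells (x axis), each the log2 difference between stimulated and unstimulated means of 3 libraries, for genes with a mean log2 CPM of 0 or more; points on the diagonal responded alike. Red points have a higher and blue points a lower interaction called both without and with the GC correction, and Igtp, labelled too, was called only without it; Ifng, Lta and Cd200 lie above the diagonal on the rising side, while Cdk6 and Plk2 lie above it near or below 0 on the WT axis and Irf1 and Uba7 lie below it.

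Of the 282 genes with a higher interaction, 121 rose in both genotypes, 125 rose in KO cells with no call in WT cells, 9 rose in KO cells and fell in WT cells, 17 fell in WT cells with no call in KO cells, and 10 fell in both. Of the 193 genes with a lower interaction, 82 fell in KO cells with no call in WT cells, 38 fell in both, 37 rose in WT cells with no call in KO cells, 24 rose in both and 12 fell in KO cells and rose in WT cells. Over the 1501 genes that rose in both genotypes the median response was 0.90 in KO cells and 0.72 in WT cells, and 65.6% of them had the larger value in KO cells. Over the 1868 genes that fell in both, the medians were -0.79 and -0.66, and 67.2% fell further in KO cells. After the GC correction these shares were 64.2% of 1943 genes and 68.9% of 2336.

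An interaction can come from a genotype difference among stimulated cells, among unstimulated cells, or both. Without the GC correction, 157 of the 282 higher genes were above WT after anti-CD3 with no call between the unstimulated cells, 79 were below WT only before stimulation, and 41 were both. Of the 193 lower genes, 136 were above WT before stimulation with no call after anti-CD3, 40 were below WT after anti-CD3 only and 15 were both. The GC correction moved this balance: 422 of 524 higher genes and 253 of 444 lower genes then differed after anti-CD3 with no call before it, and 43 and 124 differed before it with no call after it. Over all genes, KO and WT unstimulated cells differed in 33.6% of genes without the correction and in 10.2% with it, whereas the anti-CD3 cells differed in 21.5% and 23.0%. With the correction, KO cells were above WT cells in 14.5% and below them in 8.48% of genes after anti-CD3, and in 7.5% and 2.67% before it. The same shares were 12.9%, 8.62%, 19.0% and 14.6% without it.

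Effector cytokines had some of the largest interactions. Ifng (chr10:118441046-118445892, plus strand), which encodes interferon-gamma, had 322, 430.5 and 558 CPM in anti-CD3 KO cells and 6.26, 7.25 and 7.73 CPM in unstimulated KO cells. WT cells had 97.9, 86.5 and 88.99 CPM after anti-CD3 and 6.75, 8.92 and 10.3 CPM unstimulated. All 3 stimulated KO libraries were above all stimulated WT libraries, while the unstimulated libraries of both genotypes overlapped. The means were 437 ± 118 and 7.08 ± 0.749 CPM in stimulated and unstimulated KO cells and 91.1 ± 5.97 and 8.64 ± 1.78 CPM in stimulated and unstimulated WT cells (SD, n = 3 each). The response was 5.94 in KO cells and 3.41 in WT cells, an interaction of 2.53 ± 0.27 (SE, adjusted p = 0.00139), and 2.31 ± 0.35 with the GC correction (adjusted p = 0.00976). The genotypes differed by 2.26 after anti-CD3 and by -0.26 before it (adjusted p = 0.348).

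Lta, which encodes lymphotoxin-alpha, had 48.6, 56.9 and 81.5 CPM in anti-CD3 KO cells and 5.92, 6.05 and 4.25 CPM in unstimulated KO cells. WT cells had 14.9, 20.02 and 13.5 CPM after anti-CD3 and 4.05, 4.48 and 4.34 CPM unstimulated. The stimulated KO libraries again stood above every stimulated WT library, with an interaction of 1.57 ± 0.29 (SE, adjusted p = 0.0177; 1.86 with the GC correction). Il2, the T cell growth factor, had 11.2, 15.9 and 17.9 CPM in anti-CD3 KO cells against 1.77, 3.55 and 2.63 CPM in anti-CD3 WT cells, and its unstimulated libraries held at most 4 counts in KO cells and 10 in WT cells. Its interaction was called (adjusted p = 0.0252; 0.113 by limma voom), but the fitted log2 value of 4.74 depends on the prior count because the unstimulated level is close to 0. These were the 3 called members of 13 tested T cell cytokine genes of 20 listed, with a list median of 1.03, none lower, where 1.76% of all tested genes were higher; with the correction 7 were called (3.28% of all genes were), adding Tnf, Osm, Tnfsf14 and Tgfb1. Tnf had 101, 105 and 137 CPM in anti-CD3 KO cells and 20.3, 26.5 and 23.97 CPM in unstimulated KO cells, against 49.5, 61.4 and 43.3 CPM in anti-CD3 WT cells and 15.5, 23.2 and 20.5 CPM in unstimulated WT cells; its interaction was 0.88 (adjusted p = 0.0559) without and 0.98 (adjusted p = 0.0393) with the correction. Csf2 (1.03, adjusted p = 0.379) and Lif (2.74, adjusted p = 0.194) did not pass.

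Ccl3 and Ccl4, CC chemokines secreted by activated CD8 cells, were the 2 called members of 7 tested chemokine genes (median 1.05), beside the same 1.76% of all genes. Ccl4 had 415, 451 and 540.3 CPM in anti-CD3 KO cells and 4.44, 4.46 and 5.80 CPM in unstimulated KO cells. WT cells had 178, 179.8 and 172 CPM after anti-CD3 and 3.29, 4.14 and 3.82 CPM unstimulated, which gave an interaction of 1.05 ± 0.18 (SE, adjusted p = 0.00937; 1.08 with the correction). Ccl3 had 489, 574 and 673 CPM in anti-CD3 KO cells against 169, 166 and 174 CPM in anti-CD3 WT cells, with 1.15 to 2.96 CPM in the unstimulated cells of both genotypes, and an interaction of 1.35 (adjusted p = 0.0398, and 0.0517 with the correction). Both genes separated the stimulated genotypes without overlap, and Ccl3 lost its call with the GC correction. The chemokine Xcl1 was not called (0.31, adjusted p = 0.205).

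Among cytotoxic granule and death ligand genes 2 of 15 were called, both higher, beside 1.76% of all genes. Gzmb, the main granzyme, had 179, 203 and 337 CPM in anti-CD3 KO cells and 4.84, 3.65 and 6.64 CPM in unstimulated KO cells. WT cells had 50.6, 44.4 and 57.3 CPM after anti-CD3 and 3.65, 2.69 and 6.96 CPM unstimulated. The stimulated genotypes did not overlap, yet the interaction of 2.11 ± 0.54 (SE) did not pass (adjusted p = 0.0698; 0.00942 by DESeq2). Prf1, the pore-forming protein, had an interaction of 0.06 (adjusted p = 0.872). The called genes of this list (median 0.06) were Serpinb9 (0.83), the inhibitor of granzyme B that protects the killer cell, and the related Serpinb6b (0.96); with the correction they were Serpinb9 and Nkg7.

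**Figure D2:**
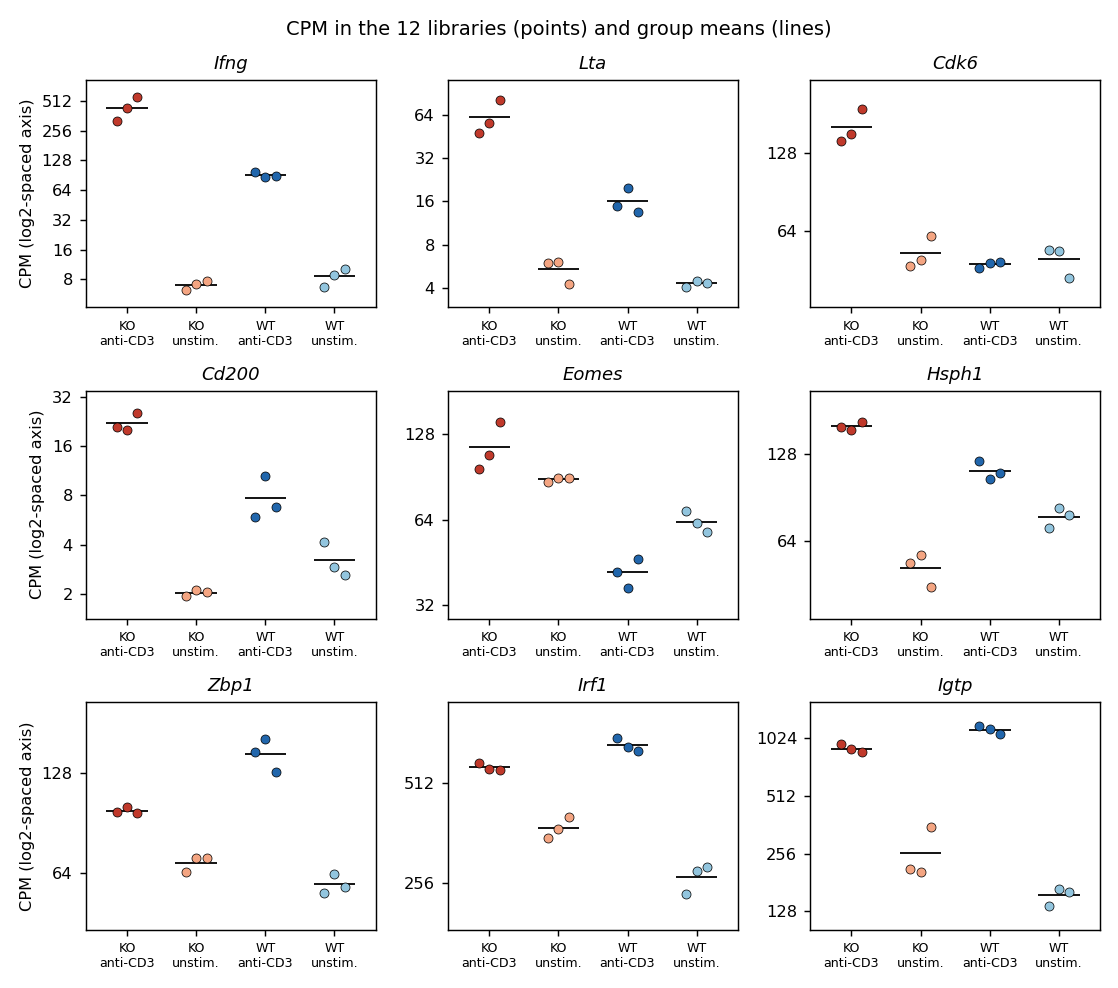
Normalised counts (CPM, log-spaced axes) of Ifng, Lta, Cdk6, Cd200, Eomes, Hsph1, Zbp1, Irf1 and Igtp in each of the 12 libraries, with the mean of each group of 3 as a line; KO groups stand left of WT groups and anti-CD3 left of unstimulated. Ifng and Cdk6 separate the stimulated genotypes by level, whereas in Irf1 and Igtp the KO libraries lie above the WT libraries unstimulated and below them after anti-CD3.

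Early genes of T cell receptor signalling were higher in 7 of 25 tested members, none lower, with a median of 0.55 (9 with the correction; all genes 1.76% and 3.28%). Nr4a3, an orphan nuclear receptor induced by receptor signalling, had 135, 151 and 167 CPM in anti-CD3 KO cells and 8.03, 8.30 and 6.44 CPM in unstimulated KO cells. WT cells had 77.3, 77.96 and 72.6 CPM after anti-CD3 and 9.31, 7.47 and 9.07 CPM unstimulated. Its stimulated libraries did not overlap between genotypes and its interaction was 1.15 ± 0.16 (SE, adjusted p = 0.00291; 1.11 with the correction). The related Nr4a2 (0.57), the NF-kappaB subunit Rel (0.55) and the I-kappaB-like Nfkbid (0.62) were also called. So was the AP-1 gene Fosl2 (0.56), which fell in WT cells (-0.71) and had a response of -0.15 in KO cells (adjusted p = 0.236). Nr4a1 (0.66, adjusted p = 0.195), Irf4 (0.31, adjusted p = 0.304), Irf8 (0.67, adjusted p = 0.126) and Tnfrsf9 (0.20, adjusted p = 0.424) did not pass, nor did Egr2 (0.34) or Myc (0.45), both of which passed with the correction (0.53 and 0.68).

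Cd69, the early activation antigen that retains T cells in tissue, had a different pattern. It had 302, 339 and 405 CPM in anti-CD3 KO cells and 418, 378 and 425 CPM in unstimulated KO cells. WT cells had 243, 304 and 277 CPM after anti-CD3 and 648, 570.5 and 557 CPM unstimulated. Without the correction the highest levels were in the unstimulated WT cells. The stimulated WT cells differed from them by -1.11, while the response of KO cells was -0.22 (adjusted p = 0.11). With the GC correction Cd69 fell in both genotypes, by -1.07 in WT cells and -0.50 in KO cells (adjusted p = 0.00287). The unstimulated genotypes then differed by 0.02 (adjusted p = 0.952). The interaction was 0.88 (adjusted p = 0.0114) and no longer passed with the correction (0.56, adjusted p = 0.0621). Rgs1, a brake on chemokine receptor signals, followed it with 1.02 and 0.68 (adjusted p = 0.0604 with the correction).

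Targets of IL-2 and Stat5 were called higher in 6 and lower in 2 of 22 members (median 0.30), beside 1.76% and 1.21% of all genes. The list was not divided by the direction in which IL-2 regulates its members. Cdk6 (chr5:3341485-3531008), the G1 kinase partner of the D cyclins, had 142, 151 and 189 CPM in anti-CD3 KO cells and 47.2, 49.9 and 61.2 CPM in unstimulated KO cells. WT cells had 46.5, 48.3 and 48.9 CPM after anti-CD3 and 54.4, 53.8 and 42.3 CPM unstimulated. The stimulated KO cells stood alone above the other 3 groups, which overlapped; the response was 1.61 in KO cells and -0.07 in WT cells (adjusted p = 0.726). The interaction was 1.68 ± 0.17 (SE, adjusted p = 0.000453) without and 1.58 ± 0.15 (adjusted p = 9.97e-05) with the correction. Ccnd2, a D cyclin, had 572, 572 and 637 CPM in anti-CD3 KO cells and 386, 352 and 416 CPM in unstimulated KO cells. WT cells had 346, 358 and 359 CPM after anti-CD3 and 393, 427 and 386 CPM unstimulated, which gave an interaction of 0.81 ± 0.12 (SE, adjusted p = 0.00365; 0.80 with the correction).

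Il2ra, the high-affinity IL-2 receptor chain, had 120.2, 128 and 162 CPM in anti-CD3 KO cells and 0.854, 0.835 and 1.68 CPM in unstimulated KO cells. WT cells had 52.1, 47.4 and 51.05 CPM after anti-CD3 and 1.51, 0.835 and 0.856 CPM unstimulated. It was induced in both genotypes and further in KO cells (interaction 1.65, adjusted p = 0.0244; 1.47 with the correction). Cish, a feedback inhibitor induced by Stat5, had 29.7, 32.4 and 45.6 CPM in anti-CD3 KO cells and 2.96, 3.18 and 5.22 CPM in unstimulated KO cells. WT cells had 5.32, 6.82 and 6.14 CPM after anti-CD3 and 1.65, 2.73 and 3.88 CPM unstimulated, with no overlap between the stimulated genotypes (interaction 2.10 ± 0.38, SE, adjusted p = 0.0187; 2.25 with the correction). Bcl2, the survival gene, fell in both genotypes but less in KO cells (-0.54) than in WT cells (-1.29), hence an interaction of 0.74 (adjusted p = 0.0177; 0.62 with the correction). The lower members were Ccnd3 (-0.44, adjusted p = 0.049; -0.25 with the correction, adjusted p = 0.0895) and Socs1. Socs1, the inhibitor of interferon-gamma signalling, had 51.8, 50.98 and 53.4 CPM in anti-CD3 KO cells and 20.7, 23.4 and 25.6 CPM in unstimulated KO cells. WT cells had 52.9, 46.99 and 51.5 CPM after anti-CD3 and 12.9, 15.8 and 11.6 CPM unstimulated. These CPM overlapped between the genotypes after anti-CD3 and were apart before it. The interaction was -0.73 (adjusted p = 0.0253), and -0.38 with the correction (adjusted p = 0.361). The unstimulated genotypes differed by 0.78 (adjusted p = 0.00034) without the correction and by 0.07 (adjusted p = 0.854) with it. Neither Ccnd3 nor Socs1 passed with the correction, which left Bcl6 (-0.69) as the 1 lower member and raised the higher ones to 8. Of all genes 3.28% were higher and 2.78% lower with it.

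Transcription factors of effector differentiation were higher in 2 of 20 members (median 0.11), beside 1.76% of all genes. Eomes, a T-box factor of effector and memory CD8 cells, had 96.2, 108 and 142 CPM in anti-CD3 KO cells and 87.2, 89.5 and 89.8 CPM in unstimulated KO cells. WT cells had 41.96, 36.8 and 46.4 CPM after anti-CD3 and 68.7, 62.3 and 58.1 CPM unstimulated. It rose in KO cells (0.38) and fell in WT cells (-0.60), with an interaction of 0.98 ± 0.17 (SE, adjusted p = 0.0124; 1.11 with the correction). Zeb2, a factor of terminal effector cells, had 32.2, 33.6 and 38.5 CPM in anti-CD3 KO cells and 4.04, 3.29 and 4.45 CPM in unstimulated KO cells, against 19.6, 18.6 and 20.3 CPM in anti-CD3 WT cells and 5.56, 4.10 and 10.04 CPM in unstimulated WT cells (interaction 1.60, adjusted p = 0.0255; 1.43 with the correction). These were the 2 called members. Tbx21, the master factor of type 1 responses, was 0.66 (adjusted p = 0.0819) without and 1.02 (adjusted p = 0.00306) with the correction. With it 3 members were higher and 2 lower, beside 3.28% and 2.78% of all genes.

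Among 17 inhibitory receptor and exhaustion genes (median -0.00) the called ones were Cd200 and Btla (0.75), both higher, beside 1.76% of all genes. With the correction 2 were higher and 2 lower (median -0.115), beside 3.28% and 2.78% of all genes. Cd200, the ligand of an inhibitory receptor of myeloid cells, had 20.8, 19.9 and 25.4 CPM in anti-CD3 KO cells and 1.94, 2.13 and 2.06 CPM in unstimulated KO cells. WT cells had 5.95, 10.5 and 6.78 CPM after anti-CD3 and 4.18, 2.92 and 2.62 CPM unstimulated. The stimulated KO libraries had at least 19.9 CPM and no other library passed 10.5 CPM, an interaction of 2.17 ± 0.31 (SE, adjusted p = 0.00321; 2.01 with the correction). Pdcd1 (-0.10, adjusted p = 0.867) and Lag3 (-0.28, adjusted p = 0.7) were not called, and both values turned positive with the GC correction (0.17 and 0.13). Cd28, the costimulatory receptor, had 194, 175 and 190.2 CPM in anti-CD3 KO cells and 178, 125 and 172 CPM in unstimulated KO cells. WT cells had 235, 261 and 245 CPM after anti-CD3 and 223, 220.5 and 232 CPM unstimulated, with an interaction of 0.11 (adjusted p = 0.733) that turned to -0.11 (adjusted p = 0.612) with the correction.

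Of 26 naive and quiescence genes 2 were lower, none higher, with a median of -0.23, and 5 were lower with the correction; of all genes 1.21% and 2.78% were lower. Leaving out 1 library gave 0 to 7 lower calls in this list without the correction and 2 to 8 with it. Without the correction the members were Klf2 (-0.61), the factor that keeps T cells circulating, and Pik3ip1 (-0.44), an inhibitor of PI3 kinase; those called with the correction included Klf7, S1pr1, Actn1 and Nsg2, and neither Klf2 (-0.19, adjusted p = 0.466) nor Pik3ip1 (-0.30, adjusted p = 0.0642) was then called. S1pr1, the egress receptor, had -0.44 (adjusted p = 0.0505) and -0.45 with the correction (adjusted p = 0.0135). Tcf7 (-0.31, adjusted p = 0.18) and Il7r (-0.14, adjusted p = 0.638) did not pass.

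The counts of the following lists stand beside 1.76% higher and 1.21% lower among all genes, and 3.28% and 2.78% with the correction. Of 22 genes of the T cell receptor complex and its kinases, Plcg1 (-0.55) and Cd8b1 (-0.40) were lower and none was higher (5 lower with the correction, median -0.19). Of 14 costimulatory receptors Tnfrsf14 was lower (-0.77), and of 18 homing and adhesion receptors Cd44, the adhesion receptor of activated cells, was higher (0.61), with 1 higher and 5 lower after the correction. Of 30 negative regulators of receptor signalling Cish was higher and Socs1 and Dok2 (-0.69) lower, and 5 were higher and 4 lower with the correction. The NF-kappaB list had 2 higher of 23 (Bcl2 and Rel) and the TGF-beta receptor and Smad list none of 15; with the correction these were 4 higher, and 1 higher with 1 lower. Of the 15 TGF-beta list genes, 5 had an unadjusted p under 0.05 in edgeR without the correction, and DESeq2 and limma voom each called 2.

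The interferon-gamma response genes were the list with the most lower calls: 14 of 35 were lower and none higher, with a median of -0.68, and 18 were lower with the correction (median -0.60). The shares of all genes called lower were 1.21% without and 2.78% with the correction. In all, 33 of the 35 had a value below 0; the exceptions were Serpina3g (0.54) and Jak2 (0.14), neither called. Over the 35 genes the median response was 0.70 in KO cells and 1.31 in WT cells. Of the 14 called genes 8 rose in KO cells and all 14 in WT cells, where 19.5% and 13.6% of all tested genes rose. Before stimulation 12 of the 14 were higher in KO than in WT cells (19.0% of all tested genes were). After anti-CD3, 5 of them were lower (8.62% of all) and 1 was higher (12.9% of all) in KO cells. With the GC correction, 15 of the 18 called genes rose in KO cells and 17 in WT cells (20.9% and 17.5% of all). Before stimulation 14 of the 18 were then higher in KO cells (7.5% of all). After anti-CD3, 10 of the 18 were lower (8.48% of all) and 0 higher (14.5% of all) in KO cells. Summed over the list, the genes had 17910, 17390 and 16550 CPM in anti-CD3 KO cells and 9532, 9109 and 11520 CPM in unstimulated KO cells, against 21940, 21630 and 20720 CPM in anti-CD3 WT cells and 8551, 8669 and 8783 CPM in unstimulated WT cells. The KO sums were thus above every WT sum before stimulation and below every WT sum after it, and unstimulated KO replicate 3 was the highest of the unstimulated libraries. Without that library 23 of the 35 were called lower, with a median of -0.52.

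Irf1 (chr11:53770014-53778374), the secondary transcription factor whose GAS is printed above, had 591, 566 and 559.7 CPM in anti-CD3 KO cells and 351, 372 and 404 CPM in unstimulated KO cells. WT cells had 701, 657 and 641 CPM after anti-CD3 and 238, 278 and 287 CPM unstimulated. The KO libraries were all above the WT libraries before stimulation and all below them after it, with an interaction of -0.71 ± 0.12 (SE, adjusted p = 0.0112) and -0.60 with the correction (adjusted p = 0.00322). Its response was 0.61 in KO cells and 1.31 in WT cells. The genotypes differed by 0.49 before stimulation (adjusted p = 0.000822) and by -0.22 after it (adjusted p = 0.0767).

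Of the 16 interferon-induced GTPase genes in the list (Gbp, Irgm and Tgtp genes, Igtp, Iigp1 and Ifi47), 5 were called lower, and 9 with the correction. The shares of all genes called lower were 1.21% and 2.78%. All 16 values were below 0, the ones nearest to it being Gbp5 (-0.11, adjusted p = 0.793) and Ifi47 (-0.35, adjusted p = 0.318). Igtp had 950.0, 891 and 859.5 CPM in anti-CD3 KO cells and 213, 206 and 351 CPM in unstimulated KO cells, against 1177, 1135 and 1072 CPM in anti-CD3 WT cells and 137, 167 and 161 CPM in unstimulated WT cells (interaction -1.05, adjusted p = 0.0306, and 0.053 with the correction). Gbp3 had 123, 120.5 and 116 CPM in anti-CD3 KO cells and 35.99, 32.1 and 49.6 CPM in unstimulated KO cells, against 167, 164 and 152 CPM in anti-CD3 WT cells and 27.1, 28.1 and 31.9 CPM in unstimulated WT cells (interaction -0.85, adjusted p = 0.024; -0.91 with the correction). In both genes no stimulated KO library reached a stimulated WT library, and KO replicate 3 was the highest of the unstimulated libraries. Irgm1 (-0.84), Gbp4 (-0.78) and Gbp8 (-0.65) were called as well, while those called only with the correction included Gbp7 (-0.86, adjusted p = 0.000856; 0.0555 without it). These families hold close copies (Igtp with Irgm2, Tgtp1 with Tgtp2, and the Gbp genes), among which reads may have been divided.

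Among genes of class I peptide loading, the stimulated libraries of the genotypes overlapped for Psmb9 and Tap1. Psmb9, an immunoproteasome subunit, had 129.7, 117 and 118 CPM in anti-CD3 KO cells and 101, 126 and 119.7 CPM in unstimulated KO cells. WT cells had 126, 122 and 117 CPM after anti-CD3 and 61.1, 68.00 and 73.96 CPM unstimulated. Only the unstimulated WT libraries stood apart, lower than the 9 others; the response was 0.07 in KO cells (adjusted p = 0.595) and 0.84 in WT cells, an interaction of -0.78 ± 0.13 (SE, adjusted p = 0.0106; -0.59 with the correction). Tap1, a subunit of the peptide transporter, had 335, 318 and 327 CPM in anti-CD3 KO cells and 283, 345 and 293 CPM in unstimulated KO cells, against 339, 305 and 299 CPM in anti-CD3 WT cells and 170.0, 188 and 195 CPM in unstimulated WT cells (interaction -0.68, adjusted p = 0.0166; -0.48 with the correction). Tap2 (-0.79), Tapbp (-0.52) and the class I transactivator Nlrc5 (-0.63) were also called, Tapbp only without the correction. After anti-CD3 Tap2 was higher in KO cells without the correction (log2 difference 0.41, adjusted p = 0.0403 between the genotypes). With the correction, none of the 18 interferon-gamma response genes called lower was called above WT after anti-CD3.

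Type I interferon response genes, which share the ISRE, were lower in 3 of 27 (median -0.43) and in 5 with the correction, none higher. Among all genes 1.21% and 2.78% were lower. Zbp1, a sensor of Z-form nucleic acid, had 97.4, 101 and 96.7 CPM in anti-CD3 KO cells and 64.4, 70.9 and 70.8 CPM in unstimulated KO cells. WT cells had 148, 162 and 129 CPM after anti-CD3 and 55.6, 63.7 and 58.04 CPM unstimulated. Its stimulated KO libraries were all below the stimulated WT libraries (-0.79 ± 0.13, SE, adjusted p = 0.00741; -0.75 with the correction). The regulator Irf7 (-0.76) and the RNA sensor Ddx58 (-0.56) were the other 2, and Irf9 (-0.77), a DNA-binding factor of the interferon response, was called in the interferon-gamma list.

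**Figure D3:**
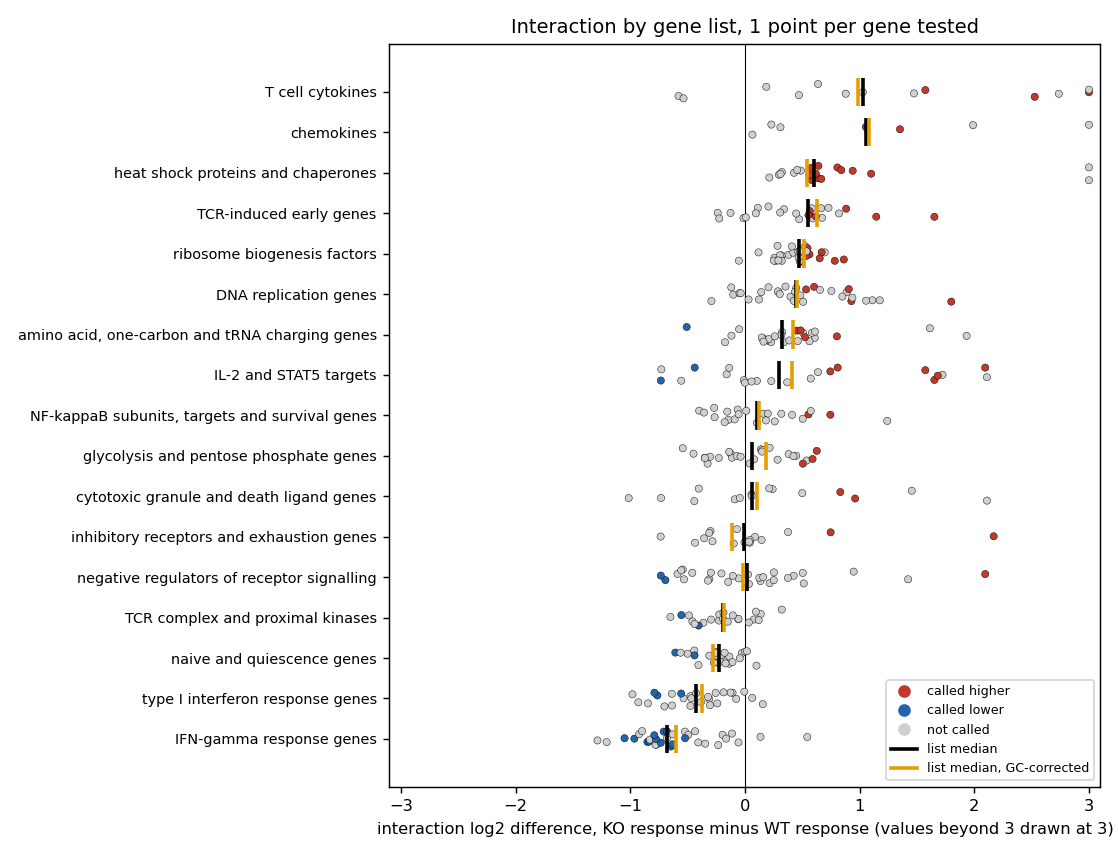
Interaction of each member of 17 gene lists (points, log2 scale, without the GC correction, values beyond 3 drawn at 3; red called higher, blue called lower, grey not called), with the list's median without the correction (black) and with it (orange). The interferon-gamma response list lies below 0 in 33 of 35 members and the heat shock and chaperone list above 0 in all 20.

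Without the correction, heat shock proteins and chaperones were the list with the most higher calls, 11 of 20 and none lower, with a median of 0.60. With it 13 of the 20 were called higher (median 0.54). Ribosome biogenesis factors then had 17 of 28 and amino acid, one-carbon and tRNA charging genes 15 of 29. Of all genes 1.76% were higher without the correction and 3.28% with it. All 20 heat shock and chaperone genes had a value above 0, and their median response was 0.80 in KO cells and 0.29 in WT cells. Of the 11, all rose in KO cells (19.5% of all genes did), and 7 rose (13.6%) and 1 fell (14.9%) in WT cells. After anti-CD3 10 were above WT (12.9% of all genes), and before it 3 were below WT (14.6%). Hsph1 (chr5:149614287-149636376), a nucleotide exchange factor for Hsp70, had 159.8, 156 and 166 CPM in anti-CD3 KO cells and 53.8, 57.4 and 44.3 CPM in unstimulated KO cells. WT cells had 121, 105 and 110.1 CPM after anti-CD3 and 71.5, 83.3 and 78.98 CPM unstimulated. KO cells were above WT cells after stimulation (0.52) and below them before it (-0.58) in every library, an interaction of 1.10 ± 0.14 (SE, adjusted p = 0.00139; 1.01 with the correction).

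Hsp90aa1, the inducible cytosolic Hsp90, had 1104, 1109 and 1450 CPM in anti-CD3 KO cells and 539.5, 500.5 and 525 CPM in unstimulated KO cells, against 785, 816 and 769 CPM in anti-CD3 WT cells and 692, 637 and 612 CPM in unstimulated WT cells (interaction 0.94 ± 0.14, SE, adjusted p = 0.0052; 0.83 with the correction). Hspa5, the Hsp70 of the endoplasmic reticulum, had 697, 697 and 919 CPM in anti-CD3 KO cells and 452, 435 and 478 CPM in unstimulated KO cells. WT cells had 469, 501 and 480.5 CPM after anti-CD3 and 508, 462 and 526 CPM unstimulated, and only its stimulated KO libraries stood apart (interaction 0.81, adjusted p = 0.0123; 0.70 with the correction). Hspd1, whose HSE is printed above, had 615, 611 and 835 CPM in anti-CD3 KO cells and 171, 147 and 188 CPM in unstimulated KO cells, against 409.5, 434 and 409 CPM in anti-CD3 WT cells and 179.5, 194 and 176 CPM in unstimulated WT cells (interaction 0.84, adjusted p = 0.0187; 0.83 with the correction), and its partner Hspe1 had 0.64. Members of cytosol (Hspa4, Hspa8, Dnaja1), mitochondria (Hspa9) and endoplasmic reticulum (Hsp90b1, and Xbp1, the transcription factor of its stress response) were all among the 11. The stress-inducible copies Hspa1a and Hspa1b, near-identical and therefore counted with uncertainty, went another way in level: Hspa1b had 0.856, 0.718 and 0.964 CPM in anti-CD3 KO cells and 2.45, 13.8 and 6.32 CPM in unstimulated KO cells, against 0.286, 0.340 and 0.284 CPM in anti-CD3 WT cells and 28.4, 55.02 and 21.5 CPM in unstimulated WT cells (interaction 3.59, adjusted p = 0.123). It was thus highest in the unstimulated WT cells and lowest in the stimulated cells of both genotypes, and its part in the other chaperone values was not tested.

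Ribosome biogenesis factors were higher in 8 of 28, none lower, with a median of 0.47, and in 17 with the correction, where the share of all genes called higher was 1.76% without and 3.28% with it. The called genes included the pre-ribosome factor Wdr12 (0.67, adjusted p = 0.0114; 0.47 with the correction), the box C/D snoRNP proteins Nop58 (0.78) and Nop56, the box H/ACA proteins Dkc1 (0.65) and Gar1, and the processome components Heatr1 (0.54) and Utp20 (0.49). Amino acid, one-carbon and tRNA charging genes were higher in 4 and lower in 1 of 29, and higher in 15 with none lower after the correction (median 0.32 without it). Mthfd2, the mitochondrial folate enzyme of proliferating cells, had 60.3, 62.1 and 81.5 CPM in anti-CD3 KO cells and 25.97, 25.9 and 26.7 CPM in unstimulated KO cells. WT cells had 30.4, 33.2 and 33.6 CPM after anti-CD3 and 22.1, 23.3 and 19.6 CPM unstimulated. The stimulated KO libraries were at least 60.3 CPM and no other library passed 33.6 CPM (interaction 0.80 ± 0.16, SE, adjusted p = 0.0192; 0.81 with the correction). The asparaginyl and isoleucyl tRNA synthetases Nars (0.49) and Iars (0.52) and the glutamine carrier Slc38a2 (0.45; adjusted p = 0.0648 with the correction) were higher. The 1 lower member was Wars (-0.51; adjusted p = 0.104 with the correction), the tryptophanyl tRNA synthetase, itself known to be induced by interferon-gamma.

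Glycolysis and pentose phosphate genes were higher in 3 of 26 with a median of 0.06 (5 higher and 1 lower with the correction): the lactate carrier Slc16a1 (0.63; adjusted p = 0.0665 with the correction), Pgam1 (0.59) and Pgk1. Nuclear respiratory chain genes were higher in 1 of 28 (Cycs, cytochrome c, 0.67), sterol and fatty acid genes in 1 of 27 (Idi1, 0.97) and constitutive proteasome genes in 1 of 23 (Psmd1, 0.53). Among all genes 1.76% were higher without the correction, and 3.28% were higher and 2.78% lower with it. None of 30 cytosolic ribosomal protein genes (median -0.16), 13 mitochondrially encoded genes (median 0.44 without and 0.12 with the correction) and 20 clustered histone genes (median -0.24) was called in either edgeR fit. Without the correction an unadjusted p under 0.05 was reached by 3, 0 and 3 of these genes; DESeq2 called 1, 0 and 0 of them and limma voom 2, 0 and 2.

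DNA replication genes were higher in 5 of 32, none lower (median 0.44; 9 with the correction; all genes 1.76% and 3.28%), including the origin proteins Orc1 (1.80 ± 0.41, SE) and Orc6 (0.91), the nucleotide enzyme Rrm1 (0.60) and Pcna (0.53; adjusted p = 0.0674 with the correction), the clamp of the polymerase. Pcna had 191, 190.2 and 247 CPM in anti-CD3 KO cells and 165, 154 and 166 CPM in unstimulated KO cells. WT cells had 160.1, 166 and 163 CPM after anti-CD3 and 189.8, 175 and 181 CPM unstimulated, so that every stimulated KO library lay above every unstimulated KO library, and every stimulated WT library below every unstimulated WT library. G1 genes were higher in 3 and lower in 1 of 21: Cdk6, Ccnd2 and the phosphatase Cdc25a (0.79) higher and Ccnd3 lower. None of 25 mitosis genes was called by edgeR, at a median of 0.57, and 1 was with the correction; 8 had an unadjusted p under 0.05, and DESeq2 called 2 and limma voom 0. The checkpoint genes Dtl (1.51, adjusted p = 0.0187; 1.29 with the correction) and Chek1 (1.34, adjusted p = 0.0255; 1.16 with the correction) were among the 12 highest interactions named by rule.

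Some genes changed in opposite directions in the genotypes. Plk2, a polo-like kinase of the stress response, had 10.8, 12.2 and 16.6 CPM in anti-CD3 KO cells and 7.40, 9.19 and 7.47 CPM in unstimulated KO cells. WT cells had 5.89, 3.92 and 5.15 CPM after anti-CD3 and 13.8, 11.7 and 9.99 CPM unstimulated. It rose by 0.71 in KO cells and changed by -1.27 in WT cells, an interaction of 1.98 ± 0.27 (SE, adjusted p = 0.00291; 1.93 with the correction). Uba7, the activating enzyme for the ubiquitin-like Isg15, had 151, 146 and 136 CPM in anti-CD3 KO cells and 186, 239.6 and 206 CPM in unstimulated KO cells. WT cells had 180.3, 169.7 and 157 CPM after anti-CD3 and 110.1, 123 and 127 CPM unstimulated. Its response was -0.55 in KO cells and 0.49 in WT cells, and the unstimulated genotypes did not overlap (interaction -1.04 ± 0.13, SE, adjusted p = 0.00179; -0.83 with the correction). Other low interactions named by rule were Nudt14 (-1.18), Baiap3 (-1.17), Tmem140 (-1.16), Uap1l1 (-1.15), Grn (-1.10) and the integrin gene Itgax (-1.13), which is also the 1 called member of the markers of other cell types. Itgax had 2.05, 2.71 and 2.14 CPM in anti-CD3 KO cells and 7.40, 9.18 and 9.54 CPM in unstimulated KO cells. WT cells had 3.54, 3.74 and 2.70 CPM after anti-CD3 and 6.38, 6.30 and 4.68 CPM unstimulated, beside the summed levels of that marker list given above, whose part in these values was not tested.

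The GC content of a gene moved with its interaction before the correction. The tested genes with a mean log2 CPM of at least 1 were put in 10 bins of equal size by GC content. The median interaction was 0.24 in the bin of lowest GC (median 39.04%) and -0.38 in that of highest GC (median 58.3%), with every step between them going down; with the correction the 10 medians lay between -0.05 and -0.03. The median genotype difference ran from -0.42 to 0.75 among unstimulated cells and from -0.20 to 0.38 among anti-CD3 cells over the same bins. Genes called higher had a median GC content of 44.4% and genes called lower 54.0% without the correction, against 49.3% and 47.3% with it and 48.4% over all tested genes. The 49 higher genes that lost their call had a median of 41.5% and the 56 lower ones 55.6%, while the 291 gained higher genes had 53.01% and the 307 gained lower ones 45.5%. Genes lost included Igtp, Ly6e (-0.61, adjusted p = 0.0665 with the correction) and Cd69, and genes gained included Gbp7, the translation factor Eif5a (0.72), the Hsp40 Dnajb1 (0.68) and Trim5 (-0.76). The median SE was 0.224 without and 0.193 with the correction. The small non-coding RNAs Rn7s1, Rn7s2 and Rn7sk together held 7.33% to 8.12% of counts in anti-CD3 KO cells and 7.83% to 13.1% in unstimulated KO cells. In WT cells they held 4.63% to 6.49% after anti-CD3 and 3.98% to 6.05% unstimulated. Their part in the interaction was not tested.

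**Figure D4:**
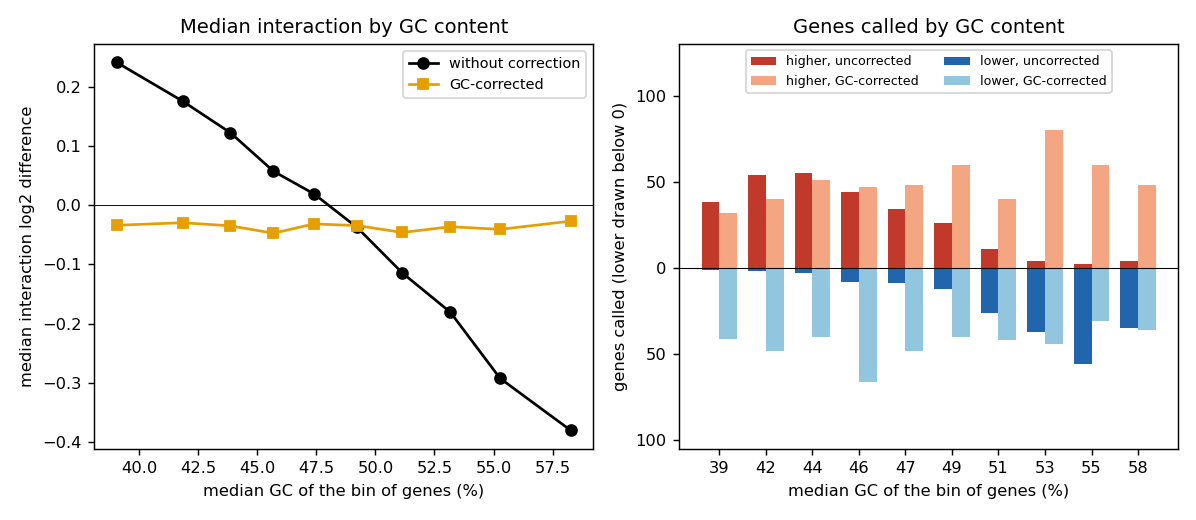
Left, median interaction (log2 units) in 10 bins of tested genes by GC content (x axis, median percent GC of the bin), without and with the GC correction; right, genes called higher (above 0) and lower (below 0) in each bin. The uncorrected medians run from 0.24 at the lowest to -0.38 at the highest GC content and the corrected ones stay between -0.05 and -0.03.

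The counts of calls depended on single libraries. Leaving out 1 library, the uncorrected count of 475 became 214, 131 and 46 without anti-CD3 KO replicates 1, 2 and 3, and 298, 355 and 1892 without unstimulated KO replicates 1, 2 and 3. It became 26, 82 and 81 without anti-CD3 WT replicates 1, 2 and 3, and 72, 89 and 250 without unstimulated WT replicates 1, 2 and 3. With the GC correction, the count of 968 became 868, 846 and 435, then 836, 533 and 1314, then 423, 644 and 508, and then 705, 544 and 756 for the same libraries in the same order. Unstimulated KO replicate 3 was thus the library whose absence raised the count in both fits. The interferon-gamma response list had between 1 and 23 lower calls over the 12 uncorrected leave-outs (1 without anti-CD3 WT replicate 1), with medians of -0.77 to -0.52, and between 15 and 24 with the correction. The heat shock list had between 2 and 14 higher calls (2 without anti-CD3 WT replicate 1) and between 10 and 14 with the correction. Without the correction the cytokine list had 1 to 4, the early receptor-induced list 1 to 7, the IL-2 and Stat5 list 2 to 7, and the ribosome biogenesis and DNA replication lists 0 to 13 each.

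Of the 370 genes called in the same direction without and with the correction, 345 were also called by DESeq2 and by limma voom, 218 higher and 127 lower. Of these, 174 were called in every leave-out with the correction, and 24 of those in every leave-out without it as well: 20 higher, including Ifng, Cdk6, Ccl4, Ccnd2, Cd200, Nr4a3, Plk2, Ell2, Hells, Tfrc, Umps, Hsph1 and Hsp90aa1, and 4 lower, including Uba7, Zbp1 and Izumo4. Lta was called in 9 of 12 uncorrected leave-outs, Cish in 8, Il2ra and Il2 in 6, Zeb2 in 5 and Ccl3 in 2, while Irf1 and Eomes were called in 11. When all 17 libraries shared 1 estimate of the spread, only 9 genes were called without the correction, 8 higher and 1 lower, and 373 with it.

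**Figure D5:**
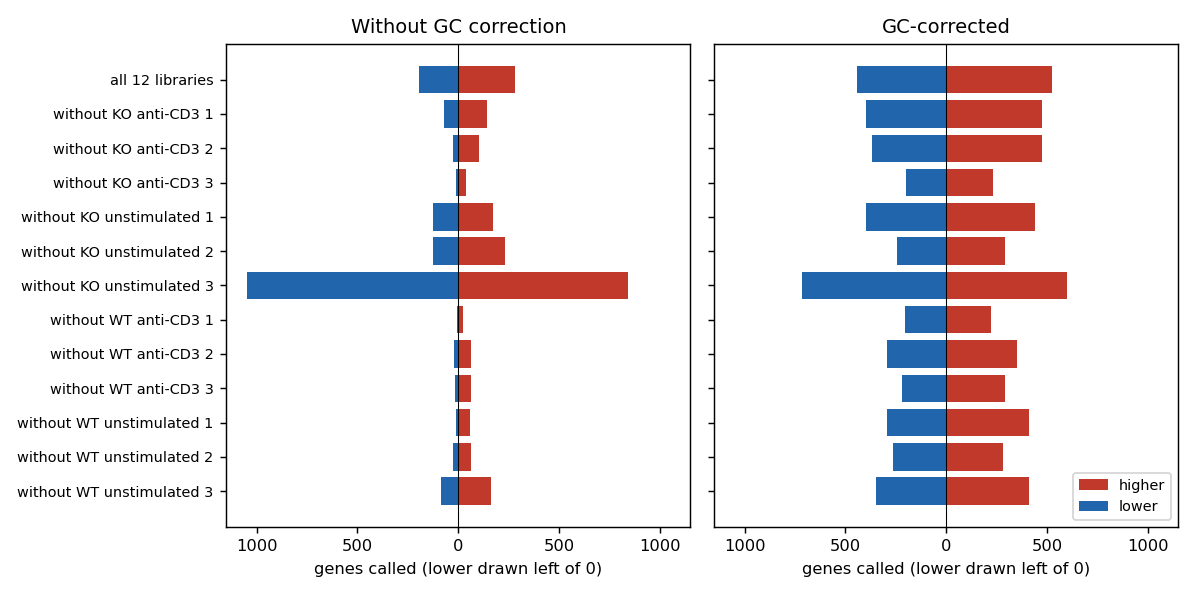
Number of genes called higher (red, right of 0) and lower (blue, left of 0) for the interaction with all 12 libraries (top bar) and with each library left out in turn, without the GC correction (left) and with it (right). The totals run from 26 to 1892 without the correction and from 423 to 1314 with it, the highest in both without unstimulated KO replicate 3.

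The 5 libraries stimulated with anti-CD3 and anti-CD28 give the corresponding interaction for both antibodies; it uses the same unstimulated libraries, so the values are set side by side only. For Ifng, the both-antibody cells had 233, 502 and 674 CPM in KO cells and 69.5 and 58.6 CPM in WT cells, an interaction of 3.14 (2.47 with the GC correction) beside 2.57 (2.36) for anti-CD3 alone, both from the fit of all 17 libraries, as are the values that follow. Irf1 had -0.82 (-0.50 with the correction) beside -0.67 (-0.56), Cdk6 1.89 (1.49) beside 1.72 (1.62), Hsph1 1.34 (1.00) beside 1.14 (1.05), and Cd200 2.70 (2.18) beside 2.21 (2.04). The signs were opposite without the correction, and alike with it, in Myc, with -0.37 (0.33) beside 0.49 (0.72), in Nr4a1, with -0.21 (0.60) beside 0.71 (0.95), and in Bcl2l1, with -0.26 (0.32) beside 0.62 (0.81). None of these uncorrected values of Myc, Nr4a1 and Bcl2l1 was called. A both-antibody library had an extreme GC tilt, whose part in the both-antibody values was not tested.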

How the data were processed

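Stranded total RNA libraries of CD8+ T cells, depleted of ribosomal RNA, were sequenced as pairs on a NextSeq 500, per the labels' protocols. The deposited tables hold counts per gene for each library, made by the authors with STAR 2.5.2 and RSEM 1.3.0 on GRCm38 (mm10), per the submitters' processing notes; the values are whole numbers. Which strand was counted and on which annotation is not given in the sources used here. The symbols, the coordinates and the GC content of the union of exons were taken from GENCODE M21 of GRCm38, which held 53565 of the 53679 gene IDs; 25736 genes had no count in the 12 libraries used.

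The 12 libraries (4 groups of 3) were fitted in edgeR 4.0.16 (R 4.3.3) with group means, TMM scaling, the tool's default filter on low counts (15993 genes kept) and the robust quasi-likelihood F test, with Benjamini-Hochberg adjustment over all tested genes and a threshold of 0.05. The interaction is the response of KO cells minus that of WT cells; its SE is the log2 value divided by the square root of F. CPM values are scaled by TMM. The GC correction is a loess curve (span 0.3) of each library's log2 deviation on GC content, used as an offset and drawn through genes with a mean log2 CPM of at least 1; 99.9% of the tested genes had a GC value. The biological coefficient of variation was 0.133 without and 0.108 with it. DESeq2 1.42.0 and limma 3.58.1 (voom with quality weights) were alternatives. Depth was 16635826 counts or more per library, and counts cover counting error only. No 2 libraries of a group agreed within counting noise (chi-square per gene 4.03 to 629).

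The fit was tested on simulated counts with 100 genes changed by each fold in the interaction. The changed genes were drawn only from genes above a minimum mean count, so the shares recovered do not cover genes of low counts. The simulated spread was that of the GC-corrected fit, also where the fit without the correction was tested. On 15697 genes without a GC trend, it recovered 64% of 2-fold and 97% of 4-fold changes and called 13 unchanged genes. On 15708 genes with each library's own GC trend, it recovered 56% and 92% without the correction and 68% and 94% with it, and called 12 and 8 unchanged genes.

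The members of the lists, the tests and the comparison were chosen with earlier results of these data known; no list was tested as a set, and the report gives the shares of all genes called to read the lists' counts against. Named genes were 34 fixed genes, the 12 highest and 12 lowest interactions called both without and with the correction (mean log2 CPM of at least 2, predicted genes left out), up to 4 called members per direction of each of 32 lists by adjusted p, and up to 6 genes called only without or only with the correction; 109 in all, some of which are not reported here. Other genes named were chosen after their values were seen: list members given by name among the called, Serpina3g, Jak2, Hspa1b, Hells, Tfrc and Umps. Leaving out each library, another scaling, other filters, replicate blocks and all 17 libraries were the further alternatives.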

Additional observations from a re-analysis of the deposited data

Results flagged for a closer look

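The anti-CD3 response differed between KO and WT cells in 475 genes by the test of the interaction itself, as described in the report.

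In 7 named genes with such a difference the response was called in opposite directions in the genotypes. Plk2 (1.98), Dtl (1.51) and Eomes (0.98) rose in KO cells and fell in WT cells. Nudt14 (-1.18), Uba7 (-1.04), Izumo4 (-0.92) and Ly6e (-0.61) fell in KO cells and rose in WT cells. Ly6e did not pass with the GC correction (adjusted p = 0.0665), and the other 6 did.

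In the libraries given both antibodies, which the comparison does not use, the same kind of interaction was called for 2565 of 16246 genes with the GC correction in the fit of all 17 libraries, 991 higher and 1574 lower. That fit called 270 higher and 103 lower for anti-CD3 alone. Without the correction it called 2972 higher and 3117 lower for both antibodies, and 8 and 1 for anti-CD3 alone. A both-antibody library had an extreme GC tilt, whose part in these counts was not tested. Both interactions use the same unstimulated libraries.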

How the results depend on the processing

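Of the counts of called genes (475 in all, 282 higher, 193 lower), relative log expression scaling (440), a filter of 1 CPM in 3 libraries (619) and thinning unstimulated KO replicate 2 to 20382594 counts (436) moved the total by less than 1.5 times, as did leaving out unstimulated KO replicate 2 (355). The GC correction gave 968 (524 higher, 444 lower) and its version by 20 bins 951 (514 and 437). No filter gave 788 with 434 lower, limma voom 1327 (658 and 669), DESeq2 1324 (668 and 656) and the fit of all 17 libraries 9 (8 and 1). Leaving out 1 library gave 26 to 1892 in all, 21 to 842 higher and 5 to 1050 lower. Around the GC-corrected count, all 17 libraries gave 373 (270 and 103), and leaving out 1 library 423 to 1314, 220 to 599 higher and 202 to 715 lower. The cause of these shifts was not tested.

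The replicate numbers did not pair the libraries: same-numbered libraries had correlations of their deviations of -0.298 to 0.309, and -0.194 to 0.145 after the GC correction. With a replicate block the counts were 275 with 86 lower, with a block within genotype 120 (98 and 22), with the GC correction and the block 834 (471 and 363) and with the correction and the block within genotype 854 (475 and 379).

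Of 109 named genes, 81 of them called, 38 settings gave the same direction and side of the threshold in 2848 values; 984 kept the direction and lost the call, 251 gained it, and 57 turned sign. All 57 were of 4 genes called in no setting. Cd28 was -0.11 with the correction, -0.10 by bins, -0.11 with the correction and the block, -0.12 with the correction and the block within genotype, -0.026 by voom and -0.070 with the correction and all 17 libraries. Pdcd1 was 0.17, 0.18, 0.17, 0.10 and 0.21 and Lag3 0.13, 0.12, 0.12, 0.096 and 0.17 under the correction, the bins, the correction with the block, with the block within genotype and with 17 libraries. Over leaving out 1 library, without and with the correction, Cd28 was -0.16 to 0.19, Prf1 -0.058 to 0.29, Pdcd1 -0.25 to 0.35 and Lag3 -0.44 to 0.32.

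Depth limits genes near the filter, such as Il2 in unstimulated cells. The genotype cannot be told apart from the GC tilt, which separates all KO from all WT libraries, except through the correction. The settings for GC-corrected leave-outs and 17 libraries were chosen after seeing the data, as were the lists' counts under each setting.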
